A study of Mus musculus with 12 samples.

Results

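This section describes 7 microRNAs that are known to mature without Drosha, the nuclear enzyme that cuts most microRNA hairpins out of longer transcripts. They are mmu-miR-320-3p, mmu-miR-320-5p, mmu-miR-484, mmu-miR-877-5p, mmu-miR-877-3p, mmu-miR-1224-5p and mmu-miR-702-3p (written below without the mouse prefix mmu), listed by name for how they are known to be made. The list was drawn up with earlier results of these data known. All 7 were found among the 1915 mouse names of the deposited count table. The table holds small RNA from extracellular vesicles, the membrane-bound particles that cells release, precipitated from plasma taken from male mice of the C57BL/6J strain. There are 6 libraries from mice 8 days after bile duct ligation (BDL), which ties off the bile duct and causes cholestatic liver injury, and 6 from mice 8 days after a sham operation. The series' design text gives 6 animals per group, and no library is described as a pool. The tissue label reads liver, although the protocol starts from plasma and the site label gives vesicles.

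In the usual pathway Drosha and its partner DGCR8 crop the hairpin and Dicer then cuts off its loop. miR-320 and miR-484 come from short transcripts whose 5′ end, still carrying the cap that RNA polymerase II transcripts receive, is the end of the hairpin, so no cropping is needed. For miR-320 the 3p arm is the one mainly loaded into Argonaute, the protein that holds a microRNA on its targets. Mirtrons such as miR-877, miR-1224 and miR-702 are short introns: the spliceosome, and not Drosha, makes their ends, and the debranched intron folds into a hairpin that Dicer cuts.

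The mature sequences are shown because the mirtron arms among them carry marks of their route. RefSeq's table for build GRCm38.p6 matched 5 of the 7 members, and capitals mark the seed, bases 2 to 8, which pairs with target messages.
miR-484: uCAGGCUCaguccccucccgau
miR-877-5p: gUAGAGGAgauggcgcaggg
miR-877-3p: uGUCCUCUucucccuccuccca
miR-1224-5p: gUGAGGACuggggagguggag
miR-702-3p: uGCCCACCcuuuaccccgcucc
No pair of these seeds is the same, and no other mature sequence in that table shares any of them, so the members do not form a seed family. Both 3p arms among the mirtron members are rich in pyrimidines, as the 3′ ends of introns are: 90.9% of the bases of miR-877-3p and 81.8% of those of miR-702-3p are C or U, against 20.0% in miR-877-5p and 19.0% in miR-1224-5p. A stretch of 18 bases of miR-877-3p also occurs in transcripts of 3 other genes (6820408C15Rik, Adck1 and Ppfibp1), so a part of its reads could be assigned elsewhere or come from elsewhere. None of the other 4 had such a stretch outside its own hairpin.

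The whole hairpins of Mir877 and Mir1224 are printed because they are entire introns in the GENCODE M21 annotation of GRCm38. Capitals mark the first and last 2 bases, the GU and AG that splicing uses.
Mir877: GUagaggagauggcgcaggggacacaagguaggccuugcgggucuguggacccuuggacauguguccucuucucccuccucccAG
Mir1224: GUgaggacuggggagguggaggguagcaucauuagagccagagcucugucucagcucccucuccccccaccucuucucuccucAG
Mir877 (chr17:35960730-35960814, minus strand) matched an 85-base intron of Abcf1, a gene of an ABC-family protein that acts in translation, at both ends. Mir1224 (chr16:20604452-20604536, plus strand) matched an 85-base intron of Vwa5b2 at both ends. miR-877-5p and miR-1224-5p thus begin at the first base of an intron, and miR-877-3p ends 1 base before the last. Mir702 (chr5:136991433-136991541, plus strand) overlaps a 102-base intron of Plod3, which encodes a collagen-modifying lysyl hydroxylase, but its annotated hairpin starts 9 bases before the intron and stops 2 bases short of its end. Its 5p arm begins at the first base of that intron, and miR-702-3p lies wholly inside it. The hairpins of the capped pair lay in no intron: Mir320 (chr14:70443510-70443591, plus strand) was outside annotated genes on both strands, and Mir484 (chr16:14159626-14159692, plus strand) was outside genes on its own strand and partly overlapped an exon of Marf1 on the other.

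Total counts ran from 121003 to 3506914 in BDL and from 659302 to 2684636 in sham libraries. Levels are given in CPM, counts scaled to a library size of 1e6 with TMM factors, which correct for a few abundant names taking a different share of each library. A read covers a small RNA from end to end, so CPM is not divided by length. Reads can be PCR copies of the same molecule, however, and adapter ligation favours some sequences. Levels of different names are therefore not molar amounts. In BDL 4, the shallowest library, a count of 0 allows up to 24 CPM, against 0.624 CPM in BDL 1, the deepest. Sample codes end in 24 or 26 in both groups, of unstated meaning, and their first digit, also of unstated meaning, is shared by 2 libraries of a group, so the 6 libraries may be 3 pairs. The 3 BDL libraries with 26 were shallow (121003 to 666310 counts). Of the marker lists, 2 of 3 tested hepatocyte names were called higher in BDL and 1 was not past the threshold, which is given below. Called lower were 3 of 5 tested red cell names, 3 of 5 leukocyte names and both endothelial and platelet names. The other 2 red cell and 2 leukocyte names were not past the threshold. Among all tested names 24.6% were called higher and 18.2% lower. Summed hepatocyte markers ran from 74747 to 327680 CPM in BDL and from 4013 to 25209 in sham, red cell markers from 124876 to 378389 and from 358819 to 556218, leukocyte markers from 563 to 2214 and from 2805 to 6421, and endothelial and platelet markers from 631 to 2619 and from 3151 to 8883. No defining marker was at 0 in all libraries. miR-122-5p of hepatocytes (log2 fold change 4.26 ± 0.55, SE) and miR-451a of red cells (-2.63 ± 0.33) differed between the same groups as every result below, and the part of these cell types in those results was not tested. In plasma vesicles, fewer vesicles from a cell type and less of a microRNA in each vesicle cannot be told apart.

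The members split. Both arms of the mirtron miR-877 were called higher in BDL, with limits given below, and the 5p arm of miR-320 was called lower. The abundant arm miR-320-3p, miR-484 and miR-702-3p were not past the threshold. Counts were tested with edgeR's quasi-likelihood test over the 341 names that passed its filter on low counts, with Benjamini-Hochberg adjustment over all of them and a threshold of adjusted p under 0.05. Of the 6 members tested, 2 were higher and 1 lower in BDL, beside 42.8% of all tested names (24.6% higher and 18.2% lower), so the members' share is near the background. Of these calls, that of miR-877-5p could be made only through its high BDL levels (it met the count filter in 6 BDL libraries and 1 sham library), and with no filter it was not past the threshold (adjusted p = 0.0739). Within code ending 24 alone miR-877-3p was not past the threshold (0.54, adjusted p = 0.246). With libraries that share a first code digit summed, miR-320-5p (-1.34, adjusted p = 0.00494), miR-877-5p (1.59, adjusted p = 0.00966) and miR-877-3p (0.80, adjusted p = 0.0346) kept their calls. The median log2 fold change (BDL minus sham) was 0.79 over the 6 tested members and 0.031 over all tested names. miR-702-3p, like miR-877-5p, was tested because of its BDL levels (it met the count filter in 5 BDL libraries and 1 sham library). Such a filter favours rises among names scarce in sham and falls among names scarce in BDL, so the members' median is a description only. The plot of fold change against level shows the called rises among the less abundant members, of which miR-320-5p fell. Both abundant members lie at 0.38 (miR-320-3p) and 0.42 (miR-484).

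**Figure D1:**
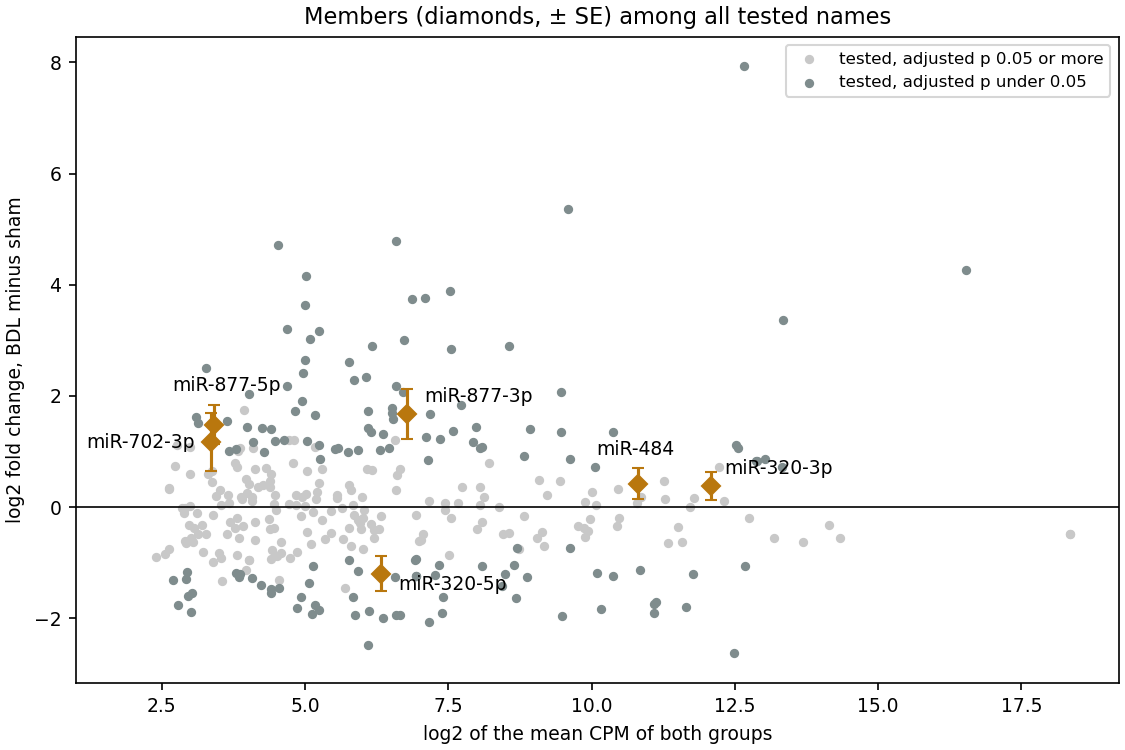
Log2 fold change (BDL minus sham, vertical axis) against the log2 of the mean CPM of both groups (horizontal axis) for the 341 tested names, with the 6 tested members as diamonds with SE bars. miR-877-5p and miR-877-3p lie above 0 at 1.48 and 1.67, miR-320-5p lies below at -1.20, and miR-320-3p and miR-484 lie at 0.38 and 0.42 far to the right.

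miR-320-3p was the most abundant member and ranked 21st of the 341 tested names by mean level. Its level was 3796 CPM in the lowest, 4426 in the median and 6621 in the highest BDL library, and 2747, 3642 and 5444 in sham. All 6 BDL libraries exceeded the sham median, and 2 exceeded the highest sham library, so the groups overlapped. The log2 fold change was 0.38 ± 0.25 (SE; 95% interval -0.14 to 0.90; adjusted p = 0.237). Thinned to the depth of the shallowest library, where 135 names could be tested, it was 0.59 (adjusted p = 0.0464), past the threshold; that setting was chosen after seeing the data.

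miR-320-5p, the other arm of the same hairpin, was scarce, and its level went the other way. It had 32.0, 43.4 and 73.7 CPM in the lowest, median and highest BDL library and 58.5, 104.9 and 178.4 in sham. Of the 6 BDL libraries 5 lay below every sham library, and BDL 2 alone lay above the lowest, sham 1. This gave a log2 fold change of -1.20 ± 0.31 (SE; 95% interval -1.86 to -0.54; adjusted p = 0.00592), a 2.30-fold fall. Counts behind it were 4 to 209 per BDL and 87 to 354 per sham library, with the 4 in BDL 4.

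Because both arms of miR-320 come from 1 hairpin in 1 library, their ratio does not depend on scaling between libraries. The log2 ratio of 3p to 5p counts (0.5 added to each) was 6.37, 6.52 and 7.31 in the lowest, median and highest BDL library and 4.17, 5.36 and 5.58 in sham. Every BDL library exceeded every sham library. Among single names 21.1% of those tested separated the groups, and the share among ratios of other pairs was not computed. It averaged 5.10 ± 0.53 over the sham and 6.64 ± 0.35 over the BDL libraries (SD, n = 6 each), which is 34.4 and 100.1 reads of 3p per read of 5p as geometric means. The difference of 1.54 had a two-sided exact permutation p of 0.00216, the smallest that 6 against 6 allows (0.00866 adjusted over 4 ratios). It was 1.74 in libraries with code ending 24 and 1.34 in those ending 26, where 3 against 3 cannot give less than 0.1.

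**Figure D2:**
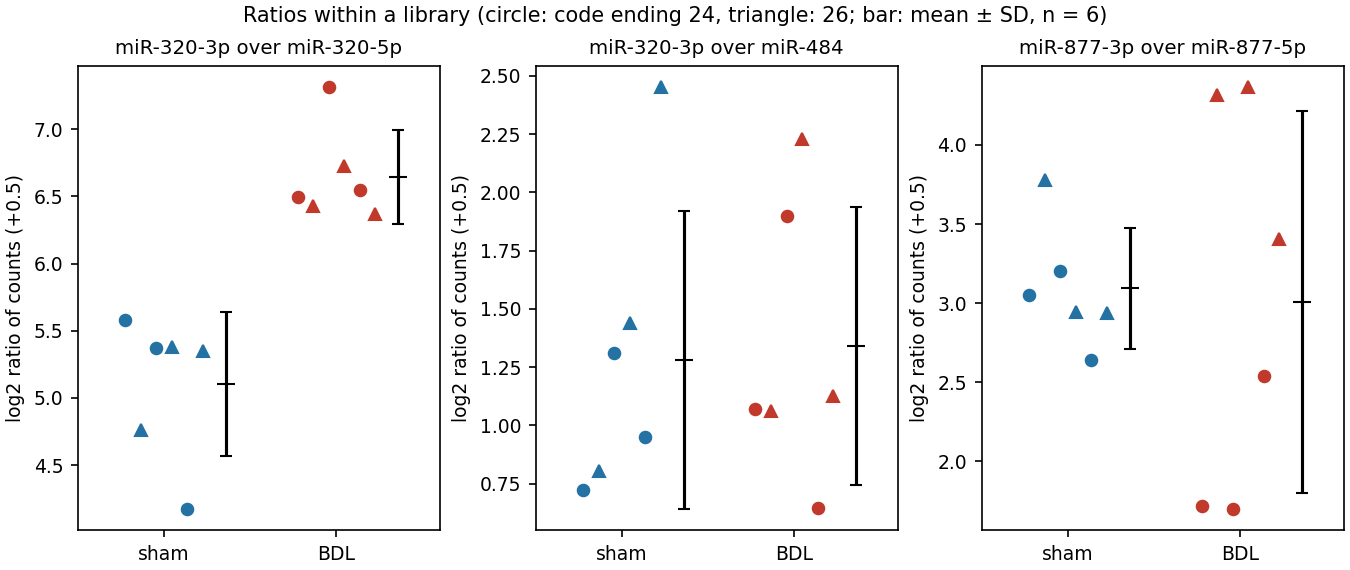
Log2 ratio of counts (0.5 added) within each library for 3 pairs of members, by group; circles are codes ending 24, triangles 26, and bars the mean ± SD of 6 libraries. The miR-320-3p to miR-320-5p ratios separate the groups (4.17 to 5.58 in sham, 6.37 to 7.31 in BDL), the miR-320-3p to miR-484 ratios overlap, and the miR-877 ratios of BDL split by code ending (1.70 to 2.54 and 3.40 to 4.36).

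miR-484, the other capped member, ranked 36th. It had 807, 2026 and 3073 CPM in the lowest, median and highest BDL library, and 995, 1653 and 1702 in sham. Of the BDL libraries 5 lay above every sham library, while BDL 4, with 101 counts of miR-484, lay below all of them. Its log2 fold change was 0.42 ± 0.28 (SE; 95% interval -0.17 to 1.01; adjusted p = 0.247). With each library left out in turn the fold change ran from 0.17 to 0.53 and was never past the threshold (adjusted p from 0.0792 to 0.686). In 5 of the 6 sham libraries the level lay between 1572 and 1702 CPM.

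The capped pair was also compared within each library. The log2 ratio of miR-320-3p to miR-484 averaged 1.28 ± 0.64 over the sham and 1.34 ± 0.60 over the BDL libraries (SD, n = 6 each), and the difference of 0.060 had a two-sided exact permutation p of 0.883. The ratio ranged from 0.65 to 2.23 in BDL and from 0.72 to 2.45 in sham, so libraries of 1 group differed by far more than the groups did.

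Both names have been used as reference microRNAs in plasma. The SD of log2 CPM within groups was 0.38 for miR-320-3p, 34th lowest of 341, and 0.52 for miR-484, 91st lowest, where the median tested name had 0.71. A low SD was not particular to them: miR-877-5p had 0.35 (27th) and miR-320-5p 0.47 (66th), while miR-702-3p had 0.84 (206th) and miR-877-3p 0.85 (211th). This SD leaves out any difference between the groups.

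Among the mirtrons, miR-877-5p rose in BDL from a low level. It had 10.8, 16.3 and 21.3 CPM in the lowest, median and highest BDL library and 3.66, 6.18 and 7.68 in sham. No sham library reached the lowest BDL library, a separation also seen in 21.1% of all tested names. The log2 fold change was 1.48 ± 0.35 (SE; 95% interval 0.75 to 2.21; adjusted p = 0.00274), a 2.79-fold rise, on 2 to 80 counts per BDL and 4 to 14 per sham library. The filter asked for 6.57 CPM, unscaled, in 6 libraries, and with no filter the log2 fold change was 1.43 (adjusted p = 0.0739), not past the threshold.

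miR-877-3p, the other end of the same intron, had 8.04 times as many counts in BDL and 8.54 times as many in sham (geometric means of the ratio), and it also rose. Its level was 54.9, 127.8 and 407.6 CPM in the lowest, median and highest BDL library and 32.9, 52.3 and 62.4 in sham. BDL 1 alone lay within the sham range. Its log2 fold change was 1.67 ± 0.45 (SE; 95% interval 0.72 to 2.63; adjusted p = 0.0071), a 3.19-fold rise. Within code endings it was 2.25 ± 0.46 in the 6 libraries ending 26 (adjusted p = 0.00194) and 0.54 ± 0.34 in the 6 ending 24 (adjusted p = 0.246), with 38.5% and 31.3% of tested names past the threshold in those fits. The 3 high BDL libraries, at 183.5, 231.8 and 407.6 CPM, are also the 3 shallow ones, and depth was not separated from code ending. The difference between endings was 1.76 ± 0.54 (adjusted p = 0.0622), not past the threshold, where 2.35% of names were. Without BDL 2 and BDL 4, a setting chosen after seeing the data, the fold change was 0.76 (adjusted p = 0.0869). With the pairs of libraries summed it was 0.80, as given above.

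**Figure D3:**
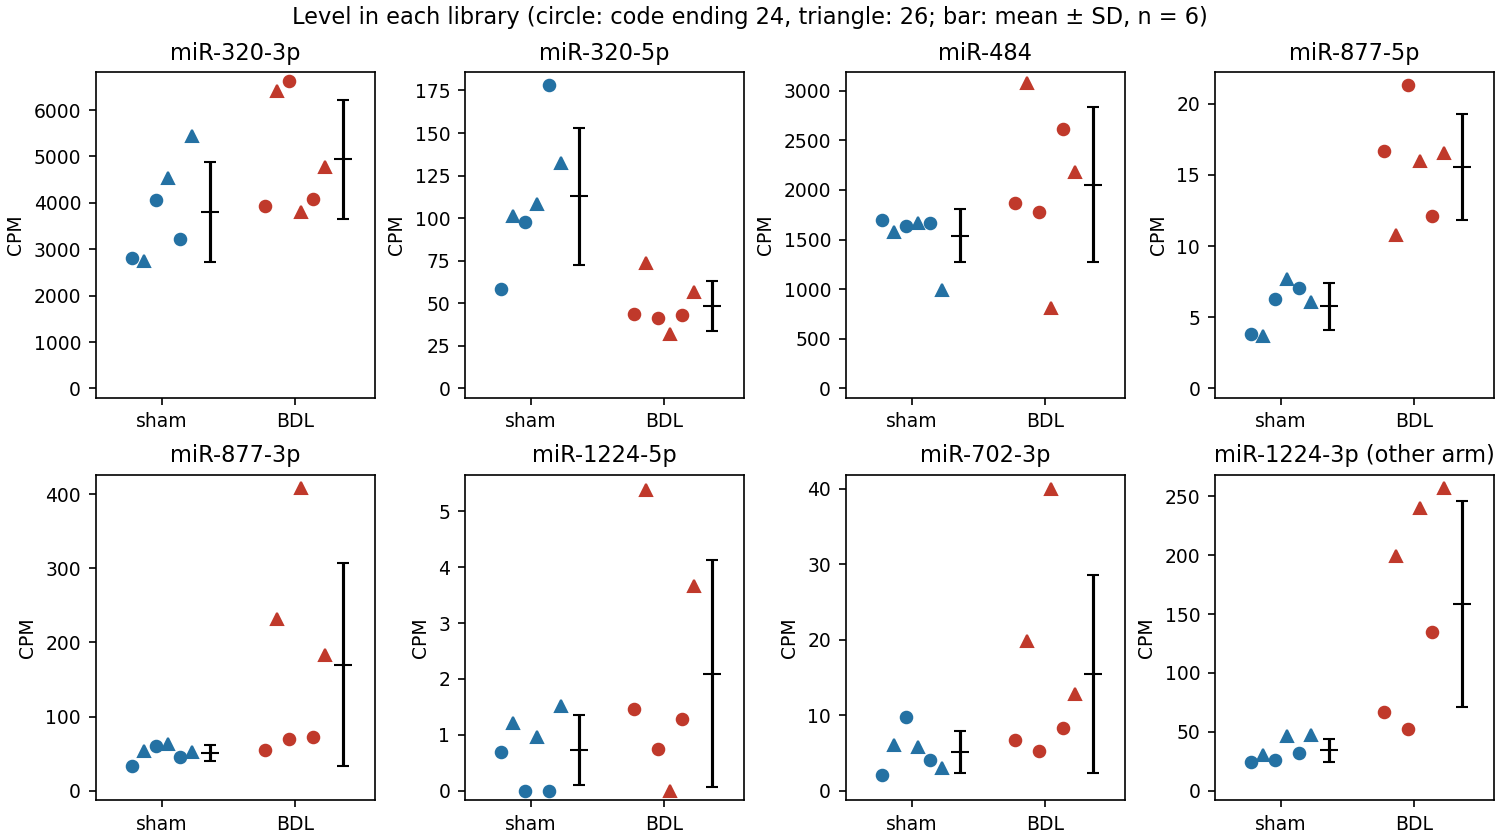
CPM in each library (vertical axis, linear, 1 scale per panel) for the 7 members and for miR-1224-3p, by group; circles are codes ending 24, triangles 26, and bars the mean ± SD of 6 libraries. miR-320-5p is lower in BDL, miR-877-5p and miR-1224-3p are higher in all 6 BDL libraries than in any sham library, and the 3 highest values of miR-877-3p are BDL triangles.

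The arms of miR-877 differed in how far they moved in single BDL libraries. The log2 ratio of 3p to 5p counts averaged 3.09 ± 0.38 over the sham and 3.01 ± 1.21 over the BDL libraries (SD, n = 6 each; two-sided exact permutation p = 0.87), with a wider spread in BDL. It was 1.70 to 2.54 in the BDL libraries ending 24, 3.40 to 4.36 in those ending 26, and 2.64 to 3.78 over all sham libraries. Permuting group labels within each ending, a test added after seeing the data, gave p = 0.015 for the difference between endings (exact, 0.06 adjusted over 4 ratios), which fails the adjustment. In the BDL libraries ending 26, miR-877-5p rested on 2 to 9 counts.

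The order of the scarce members reversed between groups. In 6 of 6 sham libraries miR-320-5p was above miR-877-3p, with mean levels of 112.8 ± 40.1 and 51.0 ± 10.8 CPM (SD, n = 6). In 6 of 6 BDL libraries miR-877-3p was the higher, with 169.9 ± 136.7 against 48.5 ± 14.7 CPM. This pair was picked after the values were seen. At the top of the order miR-320-3p exceeded miR-484 in every library. By contrast miR-1224-5p was the lowest by mean level in both groups. Just above it miR-877-5p and miR-702-3p, at 5.76 ± 1.67 and 5.13 ± 2.74 CPM in sham and 15.6 ± 3.75 and 15.5 ± 13.1 in BDL, lay within each other's spread.

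miR-702-3p was not past the threshold. It had 5.24, 10.6 and 40.0 CPM in the lowest, median and highest BDL library and 2.08, 4.90 and 9.76 in sham, on 2 to 32 counts. The highest was BDL 4, where 40.0 CPM is 5 counts. Only 3 BDL libraries exceeded every sham library, all with code ending 26. The log2 fold change was 1.17 ± 0.53 (SE; 95% interval 0.06 to 2.28; adjusted p = 0.0842). It met the count filter in 5 BDL libraries and 1 sham library, so it too was tested because of its BDL levels. Its fold change was 0.44 ± 0.64 within code ending 24 and could not be tested within 26.

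**Figure D4:**
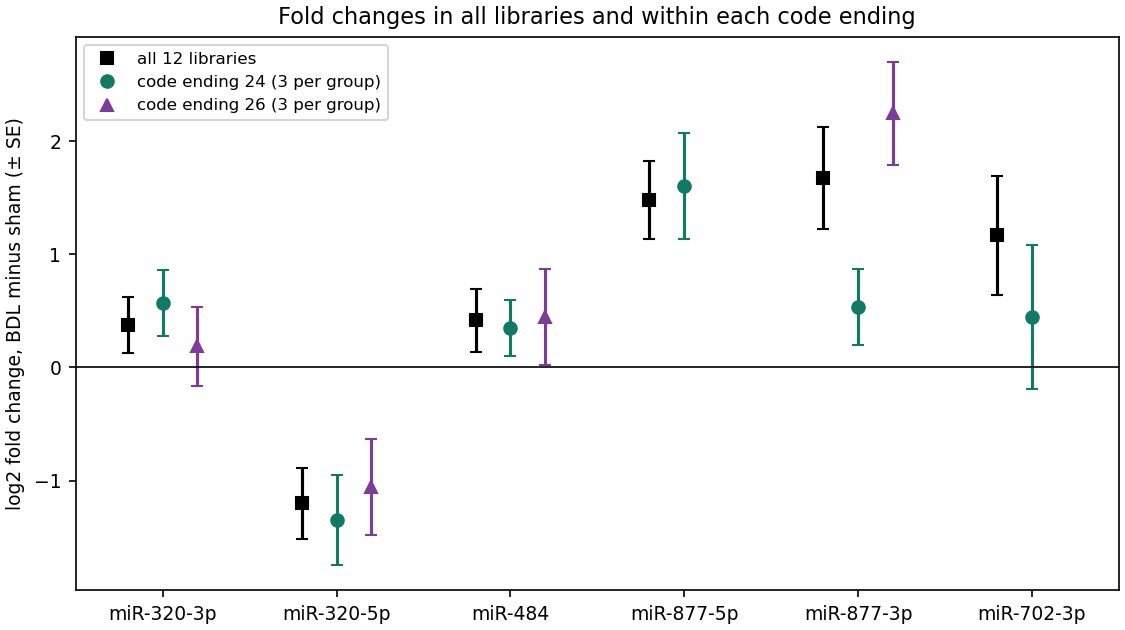
Log2 fold change (BDL minus sham, ± SE, vertical axis) of the 6 tested members in all 12 libraries (squares) and within codes ending 24 (circles) or 26 (triangles), 3 libraries per group; miR-877-5p and miR-702-3p did not meet the count filter within 26. miR-320-5p lies below 0 in both (-1.35 and -1.05), while miR-877-3p lies at 0.54 within 24 and at 2.25 within 26.

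miR-1224-5p was almost absent. It had 16 counts over all BDL and 7 over all sham libraries, with 0 in BDL 4, sham 3 and sham 5, and it did not meet the count filter. No fold is given, since 11 of the 12 libraries had 3 counts or fewer and were at or under the floor of 3 counts. The other arm of this intron, miR-1224-3p, is not one of the 7 but was well counted. Its level was 52.0, 167.0 and 256.9 CPM in the lowest, median and highest BDL library and 24.6, 30.9 and 47.2 in sham. The groups did not overlap, as in 21.1% of all tested names. The log2 fold change was 2.18 ± 0.41 (SE; adjusted p = 5.46e-04), with 1.63 ± 0.40 within code ending 24 and 2.48 ± 0.43 within 26.

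Other names said to bypass Drosha were listed alongside: the missing arms of the member hairpins, the intron-derived miR-1981, miR-1982 and miR-3102, and miR-664 and miR-1839, which come from small nucleolar-type RNAs. Among these 14 names 6 could be tested: 3 rose, 0 fell and 3 missed the threshold. Taken in either direction, that share is near the 42.8% of all tested names (24.6% higher and 18.2% lower). The median log2 fold change was 1.14 beside 0.031 for all tested names. It is a description only, since the count filter of 6.57 CPM favours rises among names scarce in sham and falls among names scarce in BDL. miR-3102-5p.2-5p, for example, averaged 11.1 CPM in BDL and 4.88 in sham. The 3 higher were miR-1224-3p and both arms of miR-664, of which miR-664-5p had 112.2 CPM in BDL against 22.2 in sham on average and a log2 fold change of 2.34 ± 0.34 (SE), at an adjusted p of 8.39e-05. The other arm, miR-664-3p, had 1.21 ± 0.42 (adjusted p = 0.0286), a call that ended when any 1 of BDL 1, 2 or 6 or sham 2 to 6 was left out (adjusted p from 0.0549 to 0.125). The values not past the threshold were -0.56 ± 0.29 for miR-1981-5p, -0.48 ± 0.27 for miR-1839-5p and 1.08 ± 0.46 for miR-3102-5p.2-5p (adjusted p = 0.124, 0.162 and 0.0679). Both arms of miR-664 share an 18-base stretch with Snora36b, so reads of that small nucleolar RNA and of the microRNA may not be told apart.

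GC content moved with the fold changes. The 4 tested members with a sequence had 59.1% (miR-877-3p) to 68.2% (miR-702-3p) G or C, where the median of 290 tested names with a sequence was 50%. Across those names, which share the same 12 libraries, Spearman's rho between GC percent and log2 fold change was 0.476, given as a description. Its part in the rises was not tested.

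The names most like each member were taken as the 3 with the smallest root mean square difference in log2 CPM over the 12 libraries, each name centred on its own mean. For miR-320-3p they were miR-99b-5p, miR-25-5p and miR-298-5p (0.30 to 0.32), and for miR-484 miR-92b-3p, miR-674-5p and miR-744-5p (0.25 to 0.36), where the median over all names was 0.92 and 0.94. For miR-320-5p they were miR-128-3p, let-7c-5p and miR-6236 (0.47 to 0.49), and none was its own 3p arm. For miR-877-5p they were miR-501-3p, miR-6988-3p and miR-423-3p (0.27 to 0.35). miR-877-3p and miR-702-3p, intron 3′ ends from different chromosomes, were each other's nearest name (0.35). The next were miR-1964-3p and miR-671-3p for miR-877-3p (0.45 and 0.47), and miR-1971 and miR-8112 for miR-702-3p (both 0.52). The likeness of miR-877-3p and miR-702-3p is limited by depth. miR-702-3p rested on 2 to 32 counts per library, and both names were highest in the shallow BDL 2, BDL 4 and BDL 6. The better counted intron 3′ end miR-1224-3p was not among the 3 nearest names of either.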

How the data were processed

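The authors deposited whole-number read counts per mature microRNA name for 12 libraries, made from 40 ng of vesicle RNA with 15 PCR cycles per the labels' protocols. The submitters' processing notes name cutadapt and STAR. Tool versions, build and the annotation of microRNAs were not given in the sources used here. No molecular identifiers are described, so floors cover counting error only. Names of other species (67) were left out of library sizes and tests. No library was a repeat of another: the chi-square per degree of freedom between 2 libraries of a group was at least 38.3.

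The test was edgeR's (version 4.0.16, R 4.3.3; quasi-likelihood F test, TMM scaling, low counts filtered by group), as BDL minus sham over all 12 libraries. Each SE was obtained from the log2 fold change and its F statistic, as their quotient after taking the root of F. Log2 CPM has a prior count of 2. Ratios were compared by exact permutation over 924 partitions. The script was tested on simulated counts. Alternatives were DESeq2 1.42.0, limma-voom (limma 3.58.1), other scalings and filters, blocks, subsets and left-out libraries. The members, the other lists and the tests were chosen with earlier results of these data known. Named microRNAs are the members, the 3 most alike names of each tested member, tested names of the list of other Drosha-bypassing names, and 2 markers; called names with a hairpin end at an intron end were added after their values were seen. The arm ratios of miR-877 and miR-1224 were added after seeing the data. P-values measure the spread between libraries, 6 per group, which may be 3 pairs by the first code digit. Intron positions come from GENCODE M21 (GRCm38), which need not be the authors' build.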

Additional observations from a re-analysis of the deposited data

Results flagged for a closer look

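In sham 6 the log2 CPM of miR-484 was 9.96, far below the other 5 sham libraries: the gap to the next lowest was a share of 0.853 of the whole range of the 6 values, where 0.625 is the limit used. Of 22 groups of 6 values examined, this was the 1 that held such a library, and chance gives about 1 in 20. The count behind it was 653.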

How the results depend on the processing

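The number of names past the threshold was 146, and 120 to 156 when each library was left out in turn; thinned to the shallowest total it was 69 of 135 tested, where fewer names could be tested. With the sample number as a replicate block it was 133. Same-numbered samples had correlations of their deviations from -0.089 to 0.31, and 2 of 6 BDL libraries correlated best with their own number, so the numbers were not taken as pairs; among the members no call changed under the block. miR-320-5p kept its direction in all 25 alternatives run for it (-1.44 to -1.05) and was not past the threshold in code ending 26 alone (-1.05, adjusted p = 0.0657). miR-877-5p ranged from 1.24 to 1.62 over 23 alternatives and was not past the threshold with no count filter (adjusted p = 0.0739). Another scaling moved the median of all names from 0.031 to -0.11 (DESeq2 size factors) or 0.12 (total counts only); relative to that median miR-320-5p had -1.23, -1.25 and -1.26, and miR-877-3p 1.64, 1.66 and 1.57. The difference in the ratio of miR-320-3p to miR-320-5p was 1.36 to 1.64 when each library was left out. With 3 against 3 it was 1.74 (code ending 24), 1.34 (26) and 1.75 (libraries sharing the first code digit summed), each at p = 0.1, the smallest possible there; with the replicate block the exact sign-flip p was 0.0312, its smallest value. For miR-320-3p to miR-484 the difference was -0.092 in code ending 26 (exact permutation p = 0.9) and -0.12 to 0.29 when each library was left out; the cause was not tested. Depth limits miR-1224-5p, miR-702-3p and miR-877-5p, which had under 10 counts in several libraries.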

Other observations

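Mature names whose annotated hairpin has an end within 3 bases of an intron end on the same strand numbered 419 of 1623 mouse names with a hairpin in the reference, among them 4 of the 7 members. Most were too scarce to test. Beside the members, 12 were tested: 5 rose, 1 fell and 6 missed the threshold, where 42.8% of all tested names were past it (24.6% higher and 18.2% lower), so the share called is near the background. The median log2 fold change was 1.10 against 0.031 for all tested names. Tested names miR-1224-3p, miR-1981-5p and miR-3102-5p.2-5p are also on the list of other names said to bypass Drosha, so the medians of both lists share them. Names scarce in sham could meet the count filter of 6.57 CPM through their BDL levels. Among them were miR-6948-3p (mean 16.7 CPM in BDL and 2.57 in sham) and miR-6964-5p (61.6 and 3.23). Such a filter favours rises among names scarce in sham and falls among names scarce in BDL, so this median is a description only. The 5 higher were miR-1224-3p, miR-6948-3p (2.49 ± 0.53, SE), miR-6964-5p (4.16 ± 0.82; 1.41 and adjusted p = 0.076 in code ending 24 alone), miR-6988-3p (1.16 ± 0.31) and miR-7043-3p (1.18 ± 0.43), and the 1 lower was miR-6967-3p (-1.26 ± 0.46), all named after their values were seen. The calls of miR-7043-3p and miR-6967-3p ended in 14 of 25 and 10 of 24 alternatives. The position is from the annotation and does not show how a name is made.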
